A study of Homo sapiens with 2 samples.

Results

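The 8 genes described here belong to the B lineage by their best-known roles, and they were followed in CD7+ cells on their way to T cells. They are *IGLL1*, *VPREB1* and *VPREB3*, of or near the surrogate light chain, *CD79A* and *CD79B*, of the B cell receptor, *JCHAIN*, of secreted antibodies, and *EBF1* and *PAX5*, the transcription factors of B cell identity. They are 8 of the 36601 genes in the matrices, and they were chosen by their measured levels and by their co-detection with *CD3D*, *CD34* and *RAG1* in these same cells. All values below are therefore descriptions without a test.

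The cells came from H1, a human embryonic stem cell line. They went through 12 days of hematopoietic differentiation and were then placed on OP9-DLL4, a mouse bone marrow stromal line that carries the human Notch ligand DLL4 and drives blood progenitors toward T cells. Cells with CD7 on their surface, a marker of early T and NK lineage cells, were sorted after 10 and 14 days of this co-culture. The groups shared the cell line, the sort for CD7 and the kind of stroma, and differed in the day. The paper's protocol also moves non-adherent cells to a fresh stroma layer after 10 days of co-culture. This transfer cannot be told apart from the day. Each day has 1 droplet library, so no replicate spread exists, no p-value is given, and the day and the library cannot be told apart. Intervals are exact 95% Poisson or binomial intervals and cover counting error only. Kept cells numbered 12114 at day 10 and 8929 at day 14, with median depths of 16173.5 and 15029 UMIs, where a UMI is a molecular tag that counts 1 captured RNA. Levels are in CPM, which gives a gene's share of all UMIs of the cells considered, scaled to a total of 1000000. Shares of cells are given after thinning each cell to 5000 UMIs, which left 11823 and 8547 cells. *CD7* itself, the marker of the sort, had a thinned share of 49.2% at day 10 and 67.3% at day 14, with the lowest cluster shares in the endothelial-like (6.25%), DC-like (8.47%) and monocyte-like (18.4%) clusters described below. The libraries shared 29 kept barcodes, 0.239% of day 10 and 0.325% of day 14 cells.

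In a developing B cell, rearrangement of the heavy chain comes before that of the light chain. Until a light chain exists, *VPREB1* and *IGLL1* (lambda-5) pair with the heavy chain as a surrogate, and *CD79A* and *CD79B* carry the signal of this pre-B cell receptor into the cell. A T cell uses an analogous device, in which *PTCRA* stands in for the T cell receptor alpha chain and the CD3 proteins, *CD3D* among them, carry the signal. Both lineages cut their receptor genes with *RAG1* and *RAG2*. *EBF1* and *PAX5* switch on the B cell program, and *PAX5* holds cells in it. *JCHAIN* links antibody units into polymers in plasma cells and is also transcribed in some early lymphoid cells and in plasmacytoid dendritic cells.

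On GRCh38, *IGLL1* (ENSG00000128322, minus strand, 3 exons) lies at chr22:23573125-23580302, 1327609 bases beyond *VPREB1* (ENSG00000169575, chr22:22244780-22245515) and 172440 bases before *VPREB3* (ENSG00000128218, chr22:23752743-23754425). The constant genes of the immunoglobulin lambda locus, to which *IGLL1* is related in sequence, lie between *VPREB1* and *IGLL1*. Reads that fit several of these genes equally cannot be assigned to 1 of them. *IGLC1* held 64 UMIs at day 10 and 4 at day 14, and *IGLC2* held 104 and 3. *CD79A* (ENSG00000105369) lies at chr19:41877279-41881372, *CD79B* (ENSG00000007312) at chr17:63928738-63932336, and *JCHAIN* (ENSG00000132465) at chr4:70655541-70681817. *EBF1* (ENSG00000164330) spans chr5:158695920-159099916 and *PAX5* (ENSG00000196092) spans chr9:36833269-37034268.

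The 250 bases before the transcription start were read from the RefSeq promoters of GRCh38.p14 for 7 of the 8 genes, all but *CD79B*. The RefSeq starts need not be the ends of the spans given above, and the *JCHAIN* and *EBF1* windows lie inside those spans. Windows are printed for a pair of surrogate light chain genes that differ widely in level and for the members with the largest rise toward day 14. They are chr22:23580291-23580540 (minus strand) for *IGLL1*, chr22:22244536-22244785 (plus) for *VPREB1*, chr19:41877029-41877278 (plus) for *CD79A* and chr4:70666509-70666758 (minus) for *JCHAIN*. Each is written 5′ to 3′ in the direction of transcription, and capitals mark matches on either strand to 3 short motifs: an E-box CAGGTG, read by TCF3-type factors, CCCNNGGG, read by *EBF1*, and TGTGGT, read by RUNX factors.
IGLL1: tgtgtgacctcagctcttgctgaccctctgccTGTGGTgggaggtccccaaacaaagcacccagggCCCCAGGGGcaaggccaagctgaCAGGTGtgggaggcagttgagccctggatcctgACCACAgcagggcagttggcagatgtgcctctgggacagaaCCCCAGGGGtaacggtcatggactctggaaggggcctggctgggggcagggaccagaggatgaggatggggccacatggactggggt
VPREB1: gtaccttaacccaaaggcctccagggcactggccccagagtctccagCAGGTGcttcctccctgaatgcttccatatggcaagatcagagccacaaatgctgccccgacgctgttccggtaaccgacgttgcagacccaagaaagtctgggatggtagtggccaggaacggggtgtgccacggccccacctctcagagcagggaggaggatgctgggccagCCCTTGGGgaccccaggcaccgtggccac
CD79A: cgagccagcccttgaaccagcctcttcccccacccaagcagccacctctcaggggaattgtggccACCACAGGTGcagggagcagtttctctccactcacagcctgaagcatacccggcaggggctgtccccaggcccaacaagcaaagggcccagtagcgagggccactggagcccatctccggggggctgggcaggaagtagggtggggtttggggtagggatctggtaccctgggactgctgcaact
JCHAIN: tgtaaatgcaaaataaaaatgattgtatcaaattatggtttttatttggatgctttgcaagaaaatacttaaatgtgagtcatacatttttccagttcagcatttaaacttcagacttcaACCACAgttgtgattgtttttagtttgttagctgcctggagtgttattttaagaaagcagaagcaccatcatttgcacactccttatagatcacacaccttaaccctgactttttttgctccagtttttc

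The E-box was found in 4 of the 7 windows (*IGLL1*, *VPREB1*, *VPREB3* and *CD79A*) and in 17.5% of 34788 RefSeq promoters of this length. The *EBF1* letters occurred in 2 of 7, against 17.0% of all promoters. They were present in *IGLL1*, with 4 overlapping matches at 2 places, and in *VPREB1*, with 1 match. The RUNX letters occurred in 4 of 7 (*IGLL1*, *VPREB3*, *CD79A* and *JCHAIN*), against 10.97% of all promoters, and in *CD79A* the match overlapped the E-box. The windows of *EBF1* and *PAX5* held none of the 3 motifs. A match is a description of the letters, and its use in these cells was not measured.

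Of the surrogate light chain genes, *IGLL1* was abundant and its partner was almost absent. The 157803 *IGLL1* UMIs of day 10 made 753 CPM (749 to 756), and the 10705 of day 14 made 69.5 CPM (68.2 to 70.8), a level 10.8-fold lower. *VPREB1* had 145 UMIs (0.692 CPM) in the day 10 library and 124 (0.805 CPM) in the day 14 library. *VPREB3*, whose product binds immunoglobulin chains inside early B cells, held 0.420 and 0.227 CPM. *IGLL1* thus differed between the days by far more than its counting error, while the intervals of *VPREB1* (0.584 to 0.814 and 0.670 to 0.960) overlapped.

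The pair of signaling chains went separate ways. *CD79A* had 5360 UMIs (25.6 CPM) at day 10 and 15706 (102 CPM) at day 14, which is a log2 difference of 1.81 with 5 CPM added to each level. *CD79B* stood at 16.4 and 15.5 CPM, with a log2 difference of -0.06. *JCHAIN* went from 8.53 CPM to 34.7 CPM, a log2 difference of 1.55. *CD79A* and *JCHAIN* were therefore higher in the day 14 library, and *CD79B* was near the same level in both.

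The B cell factors were close to the detection limit. *EBF1* had 75 UMIs at day 10 and 42 at day 14, or 0.358 and 0.273 CPM. *PAX5* had 24 UMIs at day 10 and 1 at day 14, or 0.114 and 0.00649 CPM. For scale, *CD3D* stood at 1597 and 2424 CPM, *RAG1* at 8.45 and 72.8 CPM, and *CD34* at 15.4 and 0.474 CPM in the same libraries.

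Among all genes, 8295 reached 10 CPM in at least 1 library, of which 4.54% stood at least 2-fold higher at day 14 and 2.64% at least 2-fold lower, with a median log2 difference of -0.00. Of the 8 members, 4 reached 10 CPM. These were *CD79A* and *JCHAIN* on the higher side, *IGLL1* on the lower side, and *CD79B* within 2-fold. The other 4 (*VPREB1*, *VPREB3*, *EBF1* and *PAX5*) stayed under 10 CPM in both libraries. Since the choice of the members used these levels, nothing is read from the counts.

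**Figure D1:**
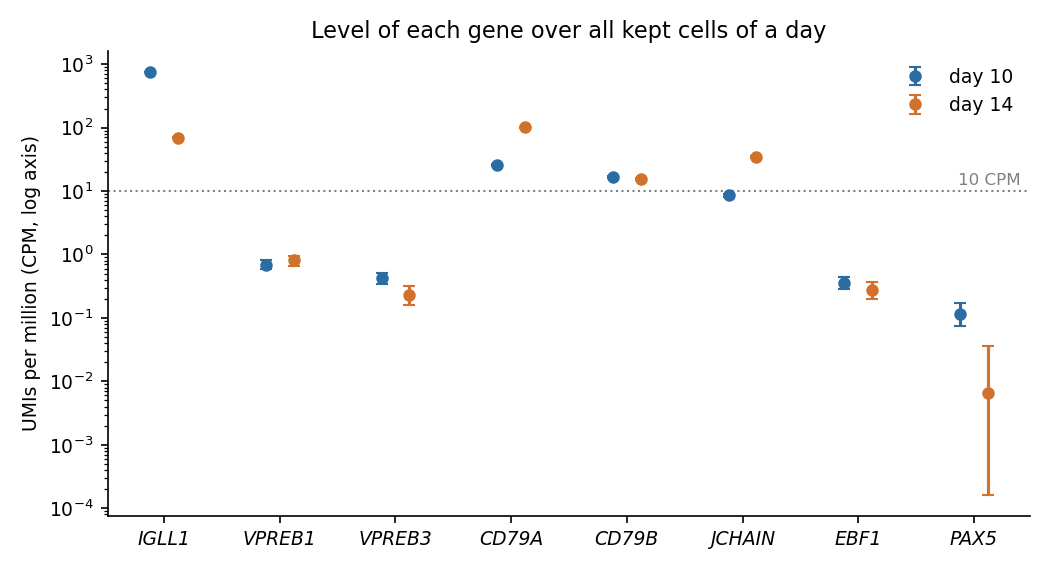
Level of each of the 8 genes over all kept cells of day 10 (blue) and day 14 (orange), in CPM on a log axis, with exact 95% Poisson intervals from 1 library per day and the 10 CPM limit dotted. IGLL1 is far above the other members at day 10, CD79A and JCHAIN are higher at day 14, and VPREB1, VPREB3, EBF1 and PAX5 stay under 1 CPM.

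How the RNA was spread over cells differed as much as the totals. After thinning, 50.8% of day 10 cells held an *IGLL1* UMI (interval 49.9 to 51.7%), and 13.3% held 10 or more, up to 37. At day 14 the share was 9.47% (8.85 to 10.1%), and 0.269% held 10 or more. The 10% of day 10 cells with the most *IGLL1* carried 48.3% of its UMIs. *IGLL1* was hence a gene of a broad range at day 10 rather than of a few extreme cells.

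*CD79A* was spread thinly over many cells. Its share was 12.0% at day 10 and 37.6% at day 14, yet no thinned cell held more than 9 UMIs. The *CD79B* shares were 7.82 and 7.87%. The *JCHAIN* shares were 2.54 and 10.3%, with up to 33 and 21 UMIs in a cell. *VPREB1* was found in 0.423 and 0.374% of cells, never with more than 2 UMIs.

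**Figure D2:**
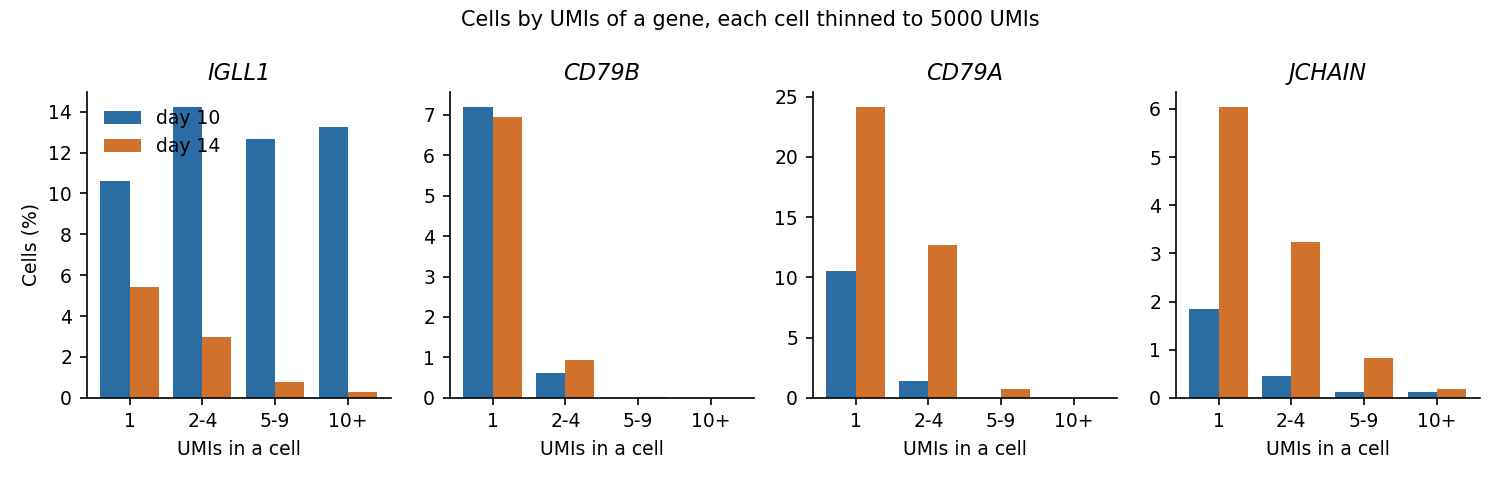
Percentage of cells (vertical axes, each from 0) with 1, 2 to 4, 5 to 9 and 10 or more UMIs of IGLL1, CD79B, CD79A and JCHAIN at day 10 (blue) and day 14 (orange), after each cell was thinned to 5000 UMIs. The day 10 IGLL1 bars are of similar height in all 4 classes, 10.6 to 14.3% of cells, while most CD79A and CD79B cells hold a single UMI.

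Clusters show in which cells the genes were found. The cells of the 2 days were clustered jointly and the 8 members were left out of the features, which gave 14 clusters, 12 of them with at least 50 cells, and names were given only from marker lists. A cluster name ends in -like (DP, CD4 and CD8 double-positive, ILC2, type 2 innate lymphoid, DC, dendritic cell), and clusters 0, 2 and 10 stayed unnamed. Those clusters were mostly day 10 cells (97.6, 97.3 and 95.1%) and carried *CD3D* at 1947, 1950 and 1693 CPM.

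*IGLL1* was highest in cluster 5, called progenitor-like for *CD34*, *SPINK2* and *C1QTNF4*, with 2054 CPM (2039 to 2070). This cluster held 7.37% of all cells and 37.8% of all *IGLL1* UMIs, and 94.2% of its thinned day 10 cells had the transcript. The stroma-like cluster 12, with 36 cells, had 1226 CPM (1139 to 1319). Of its thinned cells, 50% had *IGLL1* and 84.4% had *CD3D*. Doublet scores marked 25% of its 32 day 10 cells, and the part of doublets and of free RNA in this level was not tested. Among the clusters of at least 50 cells, next came the unnamed clusters 10, 0 and 2, with 860, 779 and 476 CPM, and the MEMP-like cluster 11, which carries erythroid, megakaryocyte and mast cell genes, with 355 CPM. The monocyte-like, DC-like, DP T-like and ILC2-like clusters followed between 153 and 45.6 CPM, and the NK/NKT-like cluster 3 was last with 9.07 CPM. Only the DP T-like clusters 4 and 1 (68.9 and 65.7 CPM) had overlapping intervals among neighbors in this order.

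*CD79B* had its highest levels at opposite ends of the *IGLL1* order. It stood at 36.3 CPM in the progenitor-like cluster 5 and at 36.1 CPM in the NK/NKT-like cluster 3, with overlapping intervals. In the RAG1-rich DP T-like cluster 8 it was 6.29 CPM, and in the DC-like cluster 9 it was 3.23 CPM. *CD79B* and *IGLL1* were thus both high in the progenitor-like cells, but not in the NK/NKT-like cells.

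*CD79A* followed the T cell clusters of day 14. It reached 158 CPM in cluster 8, 128 CPM in the NK/NKT-like cluster 3, 113 CPM in the DP T-like cluster 1 and 72.9 CPM in the DP T-like cluster 4, which is led by histone genes. The progenitor-like cluster 5 had 17.8 CPM. The MEMP-like, monocyte-like and DC-like clusters had 10.6, 7.87 and 6.46 CPM, and neighbors among these 3 overlapped. The order moved with the clustering. At a resolution of 0.3 the highest *CD79A* level was 136 CPM, in a cluster drawn mostly (77.2%) from the NK/NKT-like cluster 3, and with the members kept among the features it was 133 CPM, in a cluster drawn mostly (88.8%) from the DP T-like cluster 1.

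*JCHAIN* was highest in cluster 8. That cluster (616 cells, *RAG1* at 432 CPM and *CD8B* at 843 CPM) carried 224 CPM, and *JCHAIN* was itself among the 10 leading genes of that cluster, with *RAG1*, *PTCRA* and *CD2*. The monocyte-like cluster 7 had 56.8 CPM, and the DP T-like clusters 1 and 4 had 33.8 and 30.2 CPM. The progenitor-like cluster had 2.36 CPM, and the MEMP-like cluster had 1 UMI in all. Cluster 8 held 20.03% of all *JCHAIN* UMIs, cluster 1 held 29.5% and cluster 7 held 13.8%. This order moved as well: at a resolution of 0.3 the highest cluster was the one made of the monocyte-like cells, with 56.7 CPM, and with the members kept among the features it was a T cell cluster with 94.6 CPM.

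**Figure D3:**
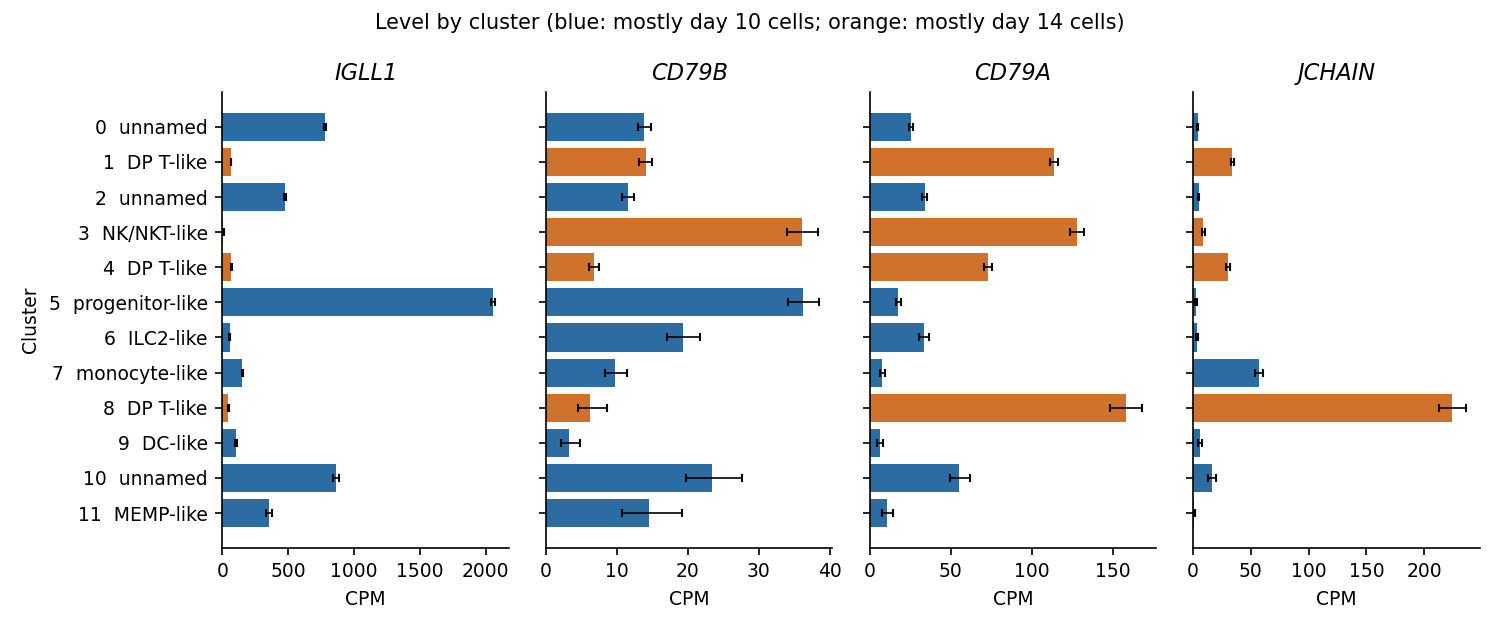
Level in CPM (horizontal axes, each from 0) of IGLL1, CD79B, CD79A and JCHAIN in the 12 clusters with at least 50 cells, with exact 95% Poisson intervals. Bars are blue where most cells are of day 10 and orange where most are of day 14, and each gene peaks elsewhere: IGLL1 in cluster 5, CD79B in 5 and 3, CD79A in 8, 3 and 1, JCHAIN in 8.

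Across the same 12 clusters, the correlation of log2(CPM + 5) between members was -0.50 for *IGLL1* and *CD79A*, -0.42 for *IGLL1* and *JCHAIN*, 0.51 for *CD79A* and *JCHAIN*, and 0.18 for *CD79A* and *CD79B*. The clusters come from only 2 libraries, and these values are descriptions. The genes closest to *IGLL1* among 4339 candidates, which had to reach 50 CPM in a cluster, were *TAF9* (r = 0.97), *NPM1*, *HSP90AB1*, *CLNS1A* and *LRPPRC*. *CD79A* was closest to *PTPN4*, *ORMDL3*, *BCL2*, *PLAAT4* and *LINC00623*, *CD79B* to *MLC1*, *ORAI1*, *BFAR*, *RASGRP2* and *MACF1*, and *JCHAIN* to *ADTRP*, *MAN2A1*, *SCRN1*, *MT1X* and *CD2*.

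Clusters with at least 25 cells of each day, 6 in number, allow a comparison within a cluster. The *IGLL1* level was lower at day 14 in each of these 6: 798 against 331 CPM in cluster 0, 484 against 273 CPM in cluster 2, 157 against 65.1 CPM in cluster 1, 94.4 against 5.22 CPM in the NK/NKT-like cluster 3, 60.8 against 20.7 CPM in the ILC2-like cluster 6, and 86.3 against 43.8 CPM in cluster 8. The smaller side held 27 to 169 cells. Thinned day 14 cells of clusters 0 and 2 had had medians of 32261.5 and 31621.5 UMIs, against 16618 and 17728.5 at day 10, and the part of this depth in their levels was not tested. In the progenitor-like cluster 5, which had only 18 day 14 cells, all 18 carried *IGLL1* and the levels were 2059 and 1809 CPM. *IGLL1* in free RNA, measured in barcodes with 1 to 100 UMIs, also went from 743 to 70.6 CPM. The day 10 levels of clusters 1, 3, 6 and 8 were near or under those of the monocyte-like and DC-like cells, so that no change is read from these 4 clusters.

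For *CD79A*, 131 CPM at day 14 stood against 56.6 CPM at day 10 in cluster 3, and 92.4 against 28.1 CPM in cluster 6. In cluster 2 it was 56.0 against 33.1 CPM. In clusters 0, 1 and 8 its intervals for the 2 days overlapped. *CD79A* in free RNA, too, was higher on the later day (31.8 against 116 CPM), and its part in these differences was not tested. *JCHAIN* in cluster 8 was 233 CPM in 589 day 14 cells and 33.8 CPM in 27 day 10 cells. In cluster 1 the *JCHAIN* intervals overlapped, at 33.9 and 27.0 CPM.

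*IGLL1* was not simply a gene of *CD34* cells. At day 10, thinned cells with UMIs of both *CD34* and *CD3D* (568 cells) had 1724 CPM of *IGLL1*, and 89.1% of them had the transcript. Cells with *CD34* and no *CD3D* (91 cells) had 380 CPM, cells with *CD3D* and no *CD34* (10022 cells) had 669 CPM, and cells with neither (1142 cells) had 83.9 CPM. These classes mix cell types. *CD34* was found in 19.6% of MEMP-like and 50% of endothelial-like thinned cells, and *CD3D* in 35.3 and 31.25% of them. The part of these clusters in the 380 CPM was not tested. Of these classes, the highest level was where the progenitor gene and the T cell gene were found together.

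The same order appeared along the number of *CD3D* UMIs in day 10 cells of clusters 0, 2, 5 and 10. *IGLL1* was 917 CPM in cells with no *CD3D* UMI (92 cells), 1665 CPM with 1 to 2, 1509 CPM with 3 to 5, 870 CPM with 6 to 10 and 340 CPM with 11 or more. *CD34* fell through the same classes without a peak, from 143 to 89.7, 36.8, 12.6 and 1.66 CPM. At a finer resolution of 0.8, different clusters were highest in *IGLL1* and *CD79B*. The cluster highest in *IGLL1* (1303 cells, 2325 CPM), of whose cells 67.5% came from the progenitor-like cluster, had *CD34* at 30.6 CPM and *CD3D* at 1169 CPM, while the cluster highest in *CD79B* (653 cells, 47.8 CPM), drawn wholly from the progenitor-like cluster, had *CD34* at 179 CPM and *CD3D* at 781 CPM.

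Co-detection was measured as the number of thinned cells with both genes over the number expected if they were independent. At day 10, *IGLL1* and *CD34* were found together in 552 cells, 1.65 times the expected 334.6 (1.51 to 1.79). With the expectation formed within clusters the ratio was 0.993. *CD79B* and *CD34* gave a ratio of 2.19, or 1.10 within clusters. *CD79A* and *CD34* gave 0.748, and *JCHAIN* and *CD34* gave 0.359 from 6 cells. Above or below 1 over all cells, the *CD34* ratios of these 4 members had intervals that included 1 within clusters.

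With *RAG1* at day 14 the members split. *JCHAIN* and *RAG1* were found together in 474 cells against 192.0 expected, a ratio of 2.47 (2.25 to 2.70), and within clusters the ratio was 1.53 (1.39 to 1.67). *CD79B* and *RAG1* gave 0.395 (0.2996 to 0.510), and 0.609 within clusters. *IGLL1* and *RAG1* gave 1.25, and 1.12 within clusters with an interval that included 1. *CD79A* and *RAG1* gave 0.942 (0.872 to 1.02), and 0.898 (0.831 to 0.970) within clusters. *RAG1* cells at day 14 were thus rich in *JCHAIN* and poor in *CD79B*.

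The level of *JCHAIN* also increased with the number of *RAG1* UMIs in day 14 cells. It was 20.1 CPM in cells with none, 75.3 CPM in cells with 1 and 190 CPM in cells with 2 or more. *CD79B* went from 21.2 to 7.68 and 5.32 CPM, and *CD79A* stayed between 96.7 and 123 CPM. For *RAG1* at day 10, *JCHAIN* gave a ratio of 1.38 from 17 cells, with an interval from 0.806 to 2.22, and *CD79B* gave 0.661. The *IGLL1* ratio with *RAG1* at day 10 was 1.20, and it was 0.944 when 2 *RAG1* UMIs were required, so that its direction depends on this choice.

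*CD3D* carried little contrast, since 89.6% of day 10 and 99.8% of day 14 thinned cells had it. Of the day 10 cells with *IGLL1*, 97.1% had a *CD3D* UMI, and of those with *CD79A*, 98.1%. For *JCHAIN* cells it was 81.0%. At day 14 every cell with *CD79A* or *JCHAIN* had *CD3D*. Before thinning, 33 of 42 *EBF1* cells (78.6%) and 11 of 13 *PAX5* cells of day 10 had *CD3D*, against 91.9% of all cells. A *CD3D* UMI alone does not mark a T cell here, since 34.3% of thinned monocyte-like and 24.5% of DC-like cells had one. The free RNA held *CD3D* too (1720 and 2925 CPM, in the order of the days). These CPM give the make-up of the free RNA and not its amount in a cell. The part of free RNA and of doublets in the *CD3D* of these clusters was not tested.

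Among themselves, the members were together between 0.694 and 1.36 times the expected number of cells. At day 14, *IGLL1* and *CD79A* gave a ratio of 0.803, and 0.867 (0.762 to 0.983) within clusters. *IGLL1* and *CD79B* gave 1.20 (1.10 to 1.30) at day 10 and 0.706 (0.515 to 0.945) at day 14, and both intervals included 1 within clusters (1.02 and 0.982). At day 14 *CD79B* and *JCHAIN* gave 0.694 (0.511 to 0.919), or 0.985 within clusters, and *IGLL1* and *JCHAIN* gave 1.27 (1.04 to 1.54), or 1.21 within clusters with an interval that included 1. *CD79A* and *JCHAIN* gave 1.36 at day 10, or 1.499 (1.11 to 1.98) within clusters, and 1.17 at day 14. *CD79A* and *CD79B*, which form 1 complex in B cells, gave 1.08 and 1.02, with intervals that included 1 on both days.

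Receptor genes and the coreceptor gene *CD8B*, chosen after the values were seen, gave further ratios. With *CD8B* at days 10 and 14, *IGLL1* gave 0.948 and 1.20, and *JCHAIN* gave 1.35 and 1.49. *CD79B* gave 0.923 and 0.631 with *CD8B*, and *CD79A* gave 1.54 and 1.01. The intervals of *IGLL1*, *JCHAIN* and *CD79B* at day 10 and of *CD79A* at day 14 included 1. Within clusters at day 14, *CD8B* gave 1.06 (0.974 to 1.16) with *IGLL1*, 1.19 (1.11 to 1.29) with *JCHAIN* and 0.822 (0.719 to 0.936) with *CD79B*. With *CD79A* at day 10 it gave 1.28 (1.05 to 1.54) within clusters. At day 14, *IGLL1* was found with *PTCRA*, the surrogate chain of the T cell receptor, in 1.44 times the expected number of cells. With *TRAC*, the T cell receptor alpha constant gene, it was 0.480 times the expected number. *JCHAIN* gave 1.84 with *PTCRA* and 0.644 with *TRAC*. *CD79B* gave 0.502 with *PTCRA* and 1.32 with *TRAC*. *CD79A* gave 0.966 and 1.13. Within clusters the *IGLL1* ratios were 1.25 and 0.599, those of *JCHAIN* 1.30 and 0.807, those of *CD79B* 0.736 and 1.07, and those of *CD79A* 0.953 and 1.11. The interval of *CD79B* with *TRAC* then included 1 (0.907 to 1.24). At day 10 the ratios with *PTCRA* and *TRAC* were 1.22 and 0.778 for *IGLL1* and 1.54 and 1.01 for *JCHAIN*. They were 0.813 and 0.941 for *CD79B* and 1.43 and 1.40 for *CD79A*. Within clusters at day 10, *CD79A* gave 1.20 (1.07 to 1.34) with *PTCRA* and 1.18 (0.972 to 1.42) with *TRAC*.

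**Figure D4:**
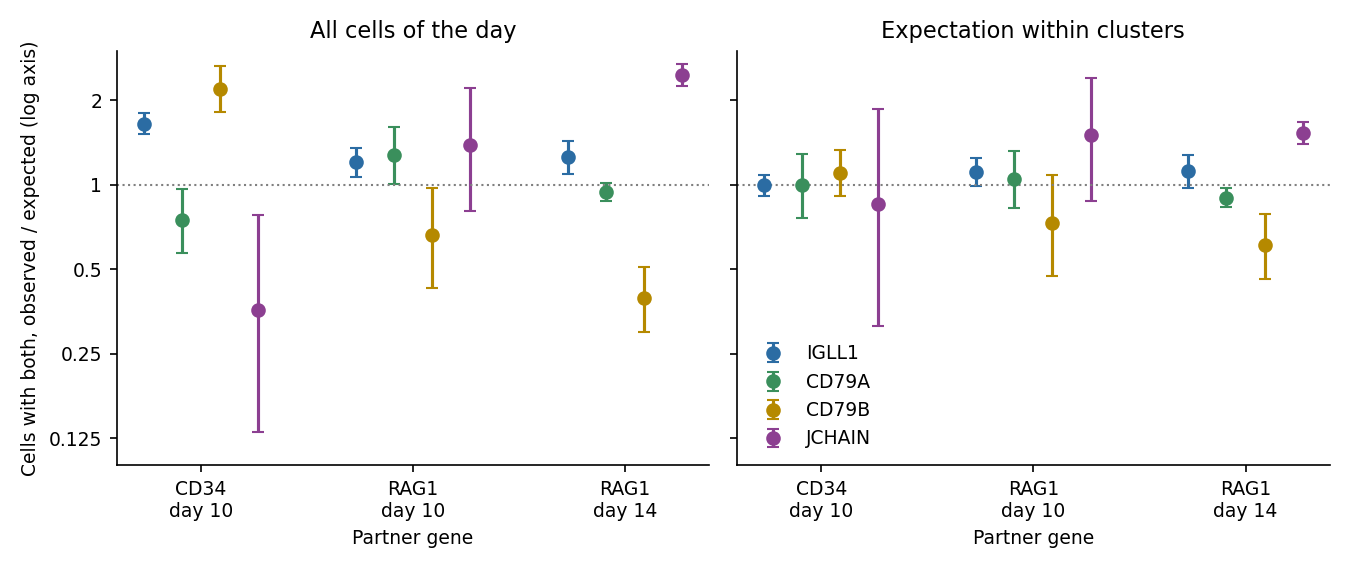
Cells with both a member and a partner gene, observed over expected (log axis, 1 dotted), for CD34 at day 10 and RAG1 at days 10 and 14, with exact 95% Poisson intervals. On the left the expectation is over all thinned cells of the day and on the right it is formed within clusters, where the CD34 ratios lie near 1 and JCHAIN and CD79B with RAG1 at day 14 stay above and below 1.

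**Figure D5:**
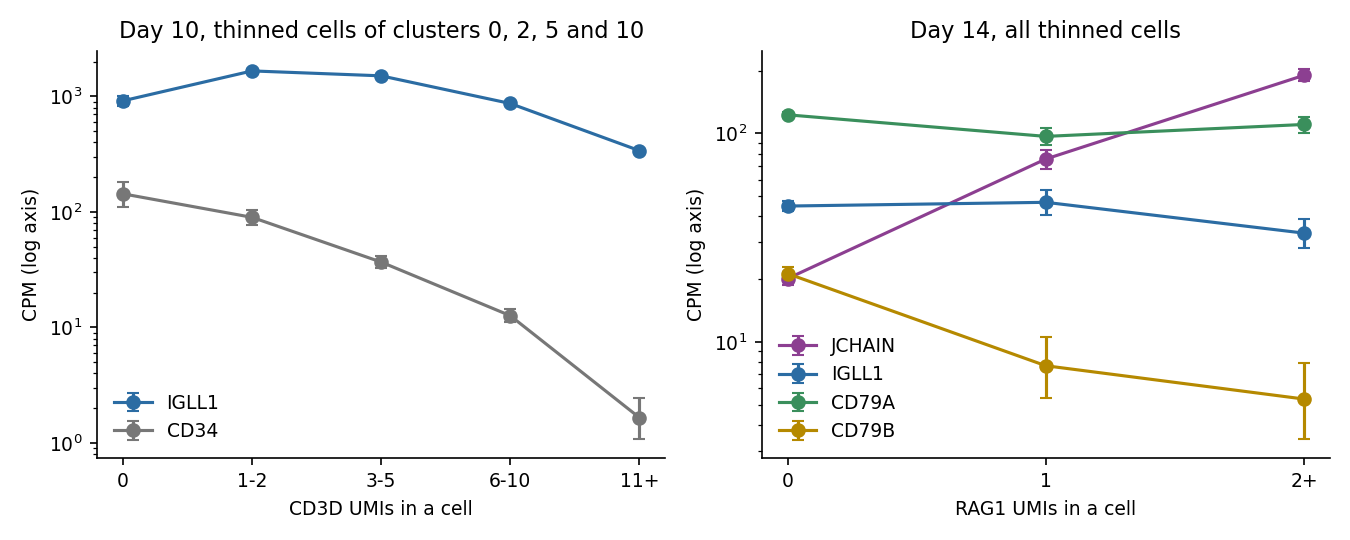
Level in CPM (log axes) with exact 95% Poisson intervals in classes of thinned cells. On the left IGLL1 and CD34 at day 10 by CD3D UMIs, where IGLL1 peaks at 1 to 2 UMIs and CD34 falls throughout; on the right JCHAIN, IGLL1, CD79A and CD79B at day 14 by RAG1 UMIs, where JCHAIN goes from 20.1 to 190 CPM.

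*JCHAIN* at day 10 was also carried by cells outside the T cell clusters. Of 29 day 10 cells with 10 or more *JCHAIN* UMIs, 27 lay in the monocyte-like cluster 7 and held 675 UMIs, 37.8% of all *JCHAIN* UMIs of that day. Without that cluster *JCHAIN* at day 10 stood at 4.19 CPM. These 27 cells, singled out after their values were seen and too few to be given a name, carried the plasmacytoid dendritic cell markers *LILRA4* at 41.97 CPM, *CLEC4C* at 60.3, *IL3RA* at 281, *TCF4* at 317, *IRF7* at 449 and *SPIB* at 178 CPM. In the 888 cells of the cluster without a *JCHAIN* UMI, these levels were 0.413, 0.0688, 29.5, 13.5, 41.8 and 8.53 CPM.

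The macrophage genes went the other way. *CSF1R* was 15.7 CPM and *C1QA* 0 in the 27 cells, against 115 and 321 CPM in the cells without *JCHAIN*. *IGKC*, the kappa light chain constant gene, was 569 CPM against 19.8 CPM, and the 27 cells held 217 of the 1356 *IGKC* UMIs of day 10. Of the 13 day 10 cells with a *PAX5* UMI, 11 lay in cluster 7 and 10 of those had a *JCHAIN* UMI, but only 4 were among the 27 cells, which held 9 of the 24 *PAX5* UMIs. High *JCHAIN* and high levels of the plasmacytoid markers and of *IGKC* were hence found in the same small set of cells, while *PAX5* was spread over cluster 7 cells with fewer *JCHAIN* UMIs too.

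*VPREB1* and *VPREB3* cells were mostly *IGLL1* cells at day 10. Before thinning, 136 of 139 *VPREB1* cells had an *IGLL1* UMI (97.8%, against 61.4% of all cells), and 73 lay in the progenitor-like cluster. Of 87 *VPREB3* cells, 77 had *IGLL1*. At day 14, 40 of 111 *VPREB1* cells had *IGLL1* (36.0%, against 17.7% of all cells). Over the cells of both days, *VPREB1* was 2.04 CPM (1.09 to 3.49) in cluster 8, from 13 UMIs. In the progenitor-like cluster, mostly day 10 cells, it was 2.81 CPM (2.25 to 3.46), and the intervals overlapped.

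A large share of *EBF1* lay outside the lymphoid cells. Of its 117 UMIs, 49 lay in the stroma-like cluster 12, where 24 of 36 cells (66.7%) had it and its level was 82.5 CPM. The co-culture stroma is a mouse line and the reads were aligned to the human genome. Whether the cells of cluster 12 came from that stroma was not tested, so human *EBF1* expression is not read from them. At day 14 *EBF1* was in 36 cells, 16 of them in the DP T-like cluster 1.

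Cells with several B-lineage genes were rare. Of 8 such genes (*VPREB1*, *VPREB3*, *CD79A*, *CD79B*, *EBF1*, *PAX5*, *MS4A1* and *BLNK*), at least 3 were detected in 58 day 10 cells (0.479%, interval 0.364 to 0.619%) and in 21 day 14 cells (0.235%, 0.146 to 0.359%), and no cell had more than 4 of the 8. After thinning to 5000 UMIs, 3 such cells and 1 such cell were left. All 21 day 14 cells had *CD79A* and *CD79B*, while none had *PAX5* or *MS4A1*. These sets were thus the CD79 pair with further genes. A gene of the intended set was left out, so the counts are lower limits for that set and no difference between days is read from them.

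A list of 21 genes of B cell identity and signaling put the members in context. Of these, 13 stayed under 10 CPM in both libraries, among them *MS4A1*, which encodes CD20 (0.0906 CPM at day 10 and 0 of 154027858 UMIs at day 14, which by the limit of 3 counts allows up to 0.0195 CPM). Of the 8 others, *BLK*, a Src-family kinase of B cells, was at least 2-fold higher at day 14 (10.9 and 41.8 CPM). The kinases *BTK* (17.5 and 1.62 CPM) and *LYN* (41.4 and 17.5 CPM) and the surface protein *CD24* (23.6 and 0.818 CPM) were at least 2-fold lower, and *CD72*, *SYK*, *POU2F2* and *BACH2* were within 2-fold with 5 CPM added. The calls nearest the limit were *LYN*, at a log2 difference of -1.05, and *BACH2* (6.99 and 16.7 CPM), at 0.86. The median log2 difference of the 8 genes was -0.30.

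No immunoglobulin constant gene reached 10 CPM. Of the 14 in the matrices, 7 had no UMI in either library, *IGHM* had 1 UMI in all, and *IGKC* was the highest with 6.47 CPM at day 10 and 1.80 CPM at day 14. Of 20 genes that B and T cell progenitors share, 15 were tested. *RAG1*, *RAG2*, *TCF12*, *IKZF3*, *LEF1*, *ID2* and *ID3* were at least 2-fold higher at day 14, and *BCL11A* and *IRF8* at least 2-fold lower, with a median log2 difference of 0.81. The shares among all tested genes were 4.54% higher and 2.64% lower. *DNTT*, which adds bases at receptor joints, had 1 UMI in all.

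Levels were also compared between cell cycle phases assigned from expression scores, from which no cycling is read. At day 14, *CD79B* was 26.0 CPM in G1 cells and 7.50 CPM in G2M cells, and *CD79A* was 156 and 77.2 CPM. *IGLL1* went the other way, with 27.9 CPM in G1, 62.1 CPM in S and 55.5 CPM in G2M cells. *JCHAIN* was 52.2, 30.7 and 42.1 CPM in the same order. Within the DP T-like cluster 1 at day 14, G1 and G2M cells had *CD79B* at 18.5 and 6.96 CPM, *CD79A* at 161 and 87.3 CPM, *IGLL1* at 28.4 and 69.6 CPM and *JCHAIN* at 36.0 and 62.3 CPM, so that the direction of *JCHAIN* was not that over all cells. At day 10 *IGLL1* was highest in S (742 CPM, against 604 in G1 and 629 in G2M). Within the progenitor-like cluster 5 at day 10 it was highest in G2M (2257 CPM, against 1962 in G1 and 1992 in S). In clusters 0 and 2 it was highest in S (814 and 461 CPM), with overlapping S and G2M intervals in cluster 2. The share of G1 cells was 28.4% at day 10 and 48.0% at day 14, and the part of free RNA in the phase calls was not tested.

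The free RNA of the low barcodes held *IGLL1* near its level in cells on both days, with *CD79A* at 31.8 and 116 CPM and *JCHAIN* at 8.26 and 39.8 CPM. In cells that should lack *IGLL1*, its day 10 share after thinning was 12.9% in the monocyte-like and 10.7% in the DC-like cluster. Median depths before thinning were 14931 and 15897 UMIs. Day 10 shares near or under these shares are not told from background, which here means the UMIs found in these clusters. The CPM of free RNA give its make-up and not its amount in a cell. The part of free RNA and of doublets in this background was not tested. In those clusters *IGLL1* per *CD3D* UMI was 0.421 and 0.342, close to the 0.432 of the free RNA, while it was 2.08 in the progenitor-like cluster and 1.11 in the MEMP-like cluster. The unnamed cluster 0, with *IGLL1* at 798 CPM at day 10, had 0.413. At day 14 the DP T-like clusters 1 and 4 had 0.0252 and 0.0293, near the free RNA too. In cells rich in *CD3D* a ratio near that of free RNA thus does not tell background from expression. At day 14 the NK/NKT-like cluster had an *IGLL1* share of 1.05% and 0.00234 *IGLL1* UMIs per *CD3D* UMI, against 0.0241 in the free RNA.

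For *CD79A* the monocyte-like and DC-like shares at day 10 were 3.55 and 2.86%, with 0.0216 and 0.0212 UMIs per *CD3D* UMI against 0.0185 in the free RNA. The progenitor-like cluster 5 had 0.0178, so that this ratio does not set background apart here either. *CD79B* in free RNA was above its level in cells, at 19.2 and 22.0 CPM. Its monocyte-like and DC-like shares at day 10 were 3.84 and 0.955%, the latter from 4 of 419 cells. The day 14 shares of clusters 4 and 8 (2.74 and 2.55%) lay between these. They come from the other library, where the monocyte-like and DC-like cells were too few for such a share. They are therefore not told from background. For *JCHAIN* the DC-like share was 1.43%, at which the day 10 shares of clusters 0, 2, 5 and 6 (0.861 to 1.97%) are not told from background. The *JCHAIN* shares of cluster 7 (9.95%) and of cluster 10 (6.22%) were above it. *EBF1* and *PAX5* in free RNA were 2.69 and 2.33 CPM at day 10, from 15 and 13 UMIs, above their levels in cells (0.358 and 0.114 CPM). At day 14 free *EBF1* was 2.75 CPM, against 0.273 CPM in cells. Doublet scores marked 14.7% of the day 10 monocyte-like cells and 10.3% of the progenitor-like cells, and their part in the T cell transcripts of the former was not tested.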

How the data were processed

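The deposited files hold raw UMI counts per gene and barcode, which the authors made with Cell Ranger 4.0.0 on GRCh38, unfiltered for cells and not normalized. Barcodes were kept by the study's limits of 1000 and 7000, stated for detected transcripts and read here as detected genes, and with no more than 18% of UMIs from mitochondrial genes. Counts were summed per day or cluster and given as CPM, and ratios between days had 5 CPM added. No test was possible with 1 library per day. Genes under 10 CPM in both libraries got no direction. Cells were thinned to 5000 UMIs once, with a fixed seed. Clusters came from Seurat 5.3.0 (R 4.3.3, sctransform 0.4.2) on 20 principal components, after regression of cell cycle scores, at resolution 0.5. A name required 3 or more genes of a marker list that reached 10 CPM and were 2-fold above other cells. Doublets were kept. Scrublet (scanpy 1.11.5) called 298 cells at day 10 and 0 at day 14 by its own threshold, so the highest scores were used in an alternative, 1174 and 638 cells. Gene positions came from GENCODE v44 by gene ID. The ratio and thinning steps were tested on simulated data. The named genes were the members, their co-detection partners, the genes of the lists at 10 CPM or more and the 5 genes most like each member. Members, lists and naming details were chosen with earlier results of these data known. A gene of the B-lineage lists is not reported here, and counts over those lists leave it out.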

Additional observations from a re-analysis of the deposited data

How the results depend on the processing

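The days differed by 1 library each, so no replicate could be left out and differences between libraries cannot be told apart from differences between days. No paired analysis was possible with 1 library per day. Depth limits VPREB1, VPREB3, EBF1 and PAX5 most, whose UMIs number 145 at most in a library. The log2 difference of IGLL1 between days (-3.35) was -3.42 with 1 CPM added, -3.28 with scaling by the median ratio, -3.81 as a mean over cells and -3.44 without the monocyte-like cluster, which was added after seeing the data and in which that of JCHAIN was 2.11. With 1 CPM added, 2 genes of the B cell identity list were at least 2-fold higher in place of 1, and with scaling by the median ratio 2 were lower in place of 3. The share of cells with IGLL1 at days 10 and 14 was 44.9 and 6.89% with thinning to 3000 UMIs and 61.4 and 17.7% with no thinning. The IGLL1 ratio with CD34 at day 10 was 1.85 with thinning to 3000 UMIs and 1.49 with none. At day 14, with no thinning, it was 2.39 with CD34 and 1.49 with RAG1. With 2 RAG1 UMIs required, the IGLL1 ratio was 0.944 at day 10, in the other direction, and 1.06 at day 14, and the cause was not tested. The highest cluster held IGLL1 at 2361 CPM with the members among the features, 2111 CPM at a resolution of 0.3 and 2325 CPM at 0.8. In barcodes with 1 to 20 UMIs, free IGLL1 was 102% of the level in cells at day 10 and 126% at day 14. With doublet calls left out, day 14 cells with at least 3 of the 8 B-lineage genes numbered 13 in place of 21. Of 270 values recomputed, 209 stayed within the counting interval or within 1.5 times the count, 60 moved beyond it and 1 reversed beyond it. In all, 15 day differences or co-detection ratios changed side, and 14 of them, such as CD79B by day (0.09 as a mean over cells) and CD79A with CD34 at day 14 (1.15 with mitochondrial UMIs at most 10%), were within 2-fold or had intervals that included 1.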
